A study of Capra hircus with 9 samples.

Results

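Interleukin and interleukin receptor genes were followed in the mammary gland of dairy goats from late lactation through the dry period to late gestation. They are the 80 genes, of 23499 in the deposited table, whose symbol is IL followed by a number, and they comprise 36 ligand genes, 37 genes of signalling receptor chains, 3 of decoy receptors, 3 of soluble antagonists or binding proteins and 1 of an enzyme. Whole mammary tissue of 9 healthy Laoshan dairy goats of the third parity, about 4 years old on average and kept under one farm's feeding, was taken at slaughter and its RNA sequenced. They were 3 goats in late lactation (LL, 240 days postpartum), 3 in the dry period (DP, 300 days postpartum) and 3 in late gestation (LG, 140 days after mating), with 1 library per goat. Each goat gives 1 stage only, so a stage difference is a difference between goats. None was treated, and all stages share breed, parity and farm.

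Interleukins are secreted proteins through which leukocytes, epithelium and stroma signal to one another, and most act through a receptor of at least a ligand-binding chain and a signalling chain that several receptors share. The IL-6 family signals through IL6ST (gp130), the IL-2, IL-4, IL-7, IL-9, IL-15 and IL-21 receptors through the common gamma chain IL2RG, and both groups pass the signal to JAK kinases and STAT factors. The IL-1 and IL-17 families act through adaptors that lead to NF-kappaB, and the IL-1 family is held back by antagonists and decoy receptors. In the mammary gland interleukins are known from the defence against infection and from the tissue remodelling after milking stops.

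Values in the table are FPKM (fragments per kilobase of gene, relative to the fragments mapped in the library), a level per length, so genes can be compared with one another. The reads behind each value are not in the table and read totals were not used here, so no counting error is attached. Since milk protein genes took up very different parts of the FPKM in the 3 stages, each library was divided by a median-ratio factor, 0.498 to 0.606 for the LL libraries, 1.44 to 1.53 for DP and 1.198 to 1.31 for LG, and the quotient is called scaled FPKM here. Log2 fold changes are differences of log2(scaled FPKM + 1), which understates the changes of weakly expressed genes. The median of all genes tested was then 0.004 to 0.019 in the 3 comparisons, against 1.09 for DP against LL, 0.93 for LG against LL and -0.18 for LG against DP without scaling. Each comparison was tested with limma over all 9 libraries and all 14701 genes that reached 0.5 FPKM in 3 or more libraries. Calls needed both a log2 fold change of 1 or more, up or down, and a p under 0.05 after Benjamini-Hochberg adjustment, called adjusted p here. Gene positions are those of the table, and for all 80 members they equal those of the goat assembly ARS1.2. The tissue label matched its markers. Of the mammary luminal genes, KRT8 was at 80.8, 67.1 and 78.4 scaled FPKM during LL, 69.8, 154 and 70.7 during DP and 66.1, 73.7 and 77.9 during LG, while the beta-casein gene CSN2 ran from 137800 to 196700 scaled FPKM in LL, from 12.2 to 33.2 in DP and from 3216 to 4900 in LG. The 6 luminal genes on the list summed to 819 to 1106 during LL, 269 to 522 during DP and 732.5 to 891 during LG. In DP against LL, 4 of the 6 were lower and 2 higher, and only ELF5 was called (log2 fold change -4.19, adjusted p = 3.13e-06, by limma). ALAS2 and HBM, markers of red blood cell precursors, were listed at 0 in every library. AHSP, also on that list, was at 0.40, 0.41 and 0.16 FPKM during LL, 0, 0.13 and 0.17 during DP and 0.30, 0.35 and 0.26 during LG. It was below the level for testing.

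Of the 80 genes, 42 reached the level for testing, 11 of the 36 ligands, 27 of the 37 receptor chains, 1 decoy receptor (IL1R2), 2 inhibitors (IL1RN and IL18BP) and the enzyme IL4I1. The other 38 stayed at or below 1.57 FPKM, and 7 of them (IL9, IL19, IL20, IL22, IL36B, IL1F10 and IL36RN) were listed at 0 in every library. Summed over all 37 chains, the receptors stood at 153, 143 and 147 scaled FPKM during LL, 243, 256 and 251 during DP and 106, 115 and 107 during LG. The 3 stages did not overlap in this sum, which was highest in DP and lowest in LG. The order of LL and LG turned without scaling, where the sums were 76.3 to 88.9 FPKM for LL, 361 to 372 for DP and 126 to 141 for LG. The 36 ligands summed to 47.4, 35.8 and 27.7 scaled FPKM during LL, 65.0, 46.1 and 59.5 during DP and 72.1, 66.9 and 34.9 during LG, and here the stages overlapped.

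**Figure D1:**
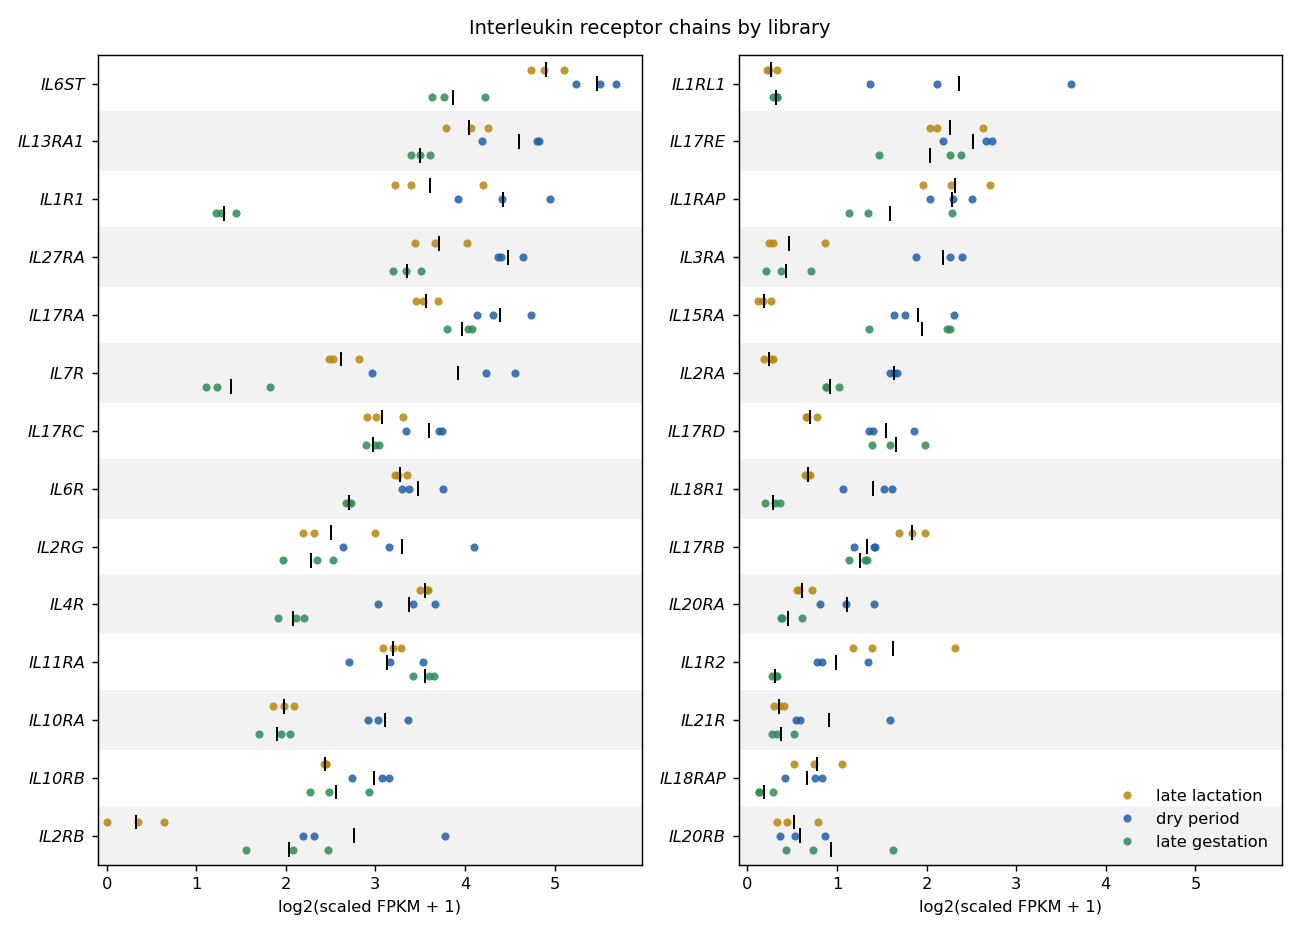
Level of each tested receptor chain, decoy receptor included, in every library, as log2(scaled FPKM + 1), with 3 points per stage and a black bar at their mean, in order of the DP mean. IL6ST leads in LL and DP, and the 3 LG libraries of IL1R1, at 1.33 to 1.71 scaled FPKM, lie far below the others.

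In DP against LL, 13 members were called higher and 0 lower, where 13.8% of all genes tested were called higher and 8.79% lower. By limma, 27 members had an unadjusted p under 0.05 and a higher value in DP, and 3 had a lower one. The share of all genes at an unadjusted p under 0.05 was not taken, here or for LG against DP below, so these counts stand without a background. The median log2 fold change of the 42 members was 0.71, against 0.004 over all genes. The filter bears on this count. Of the 42 members, 17 had no LL library at 0.5 FPKM and passed through the other stages, and 10 of these were called higher, where 59.8% of all genes with so low an LL level were. Of the other 25 members 3 were called higher, where 5.02% of all such genes were. In LG against LL, 6 members were called higher and 5 lower, where the shares over all genes were 10.7% and 6.61%, and the member median was -0.06. Of the 17 members with low LL values 5 were called higher here, against 47.9% of such genes, and of the other 25 members 1 was, against 3.6%. In LG against DP, 14 members were called lower and 0 higher, against 6.88% and 6.37% of all genes, and the member median was -0.64. At an adjusted p under 0.05 with no limit on size, 27 members passed when DP was set against LL, 19 when LG was set against LL and 19 when LG was set against DP, where 56.9%, 50.2% and 34.8% of all genes did. In this last comparison 24 members had by limma an unadjusted p under 0.05 and a lower value in LG, and 1 (IL18BP) had a higher one. Of the 14 genes, 3 (IL6, IL18R1 and IL1RL1) had passed the filter through DP alone, and 11 had not. Without scaling, the calls were 32 higher and 0 lower in DP against LL, 14 higher and 1 lower in LG against LL, and 0 higher and 16 lower in LG against DP. The medians of all genes were then 1.09, 0.93 and -0.18, so the shares above do not apply to these counts. The share of all genes called without scaling was not taken. The 3 comparisons share libraries, so the patterns across them are not independent.

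**Figure D2:**
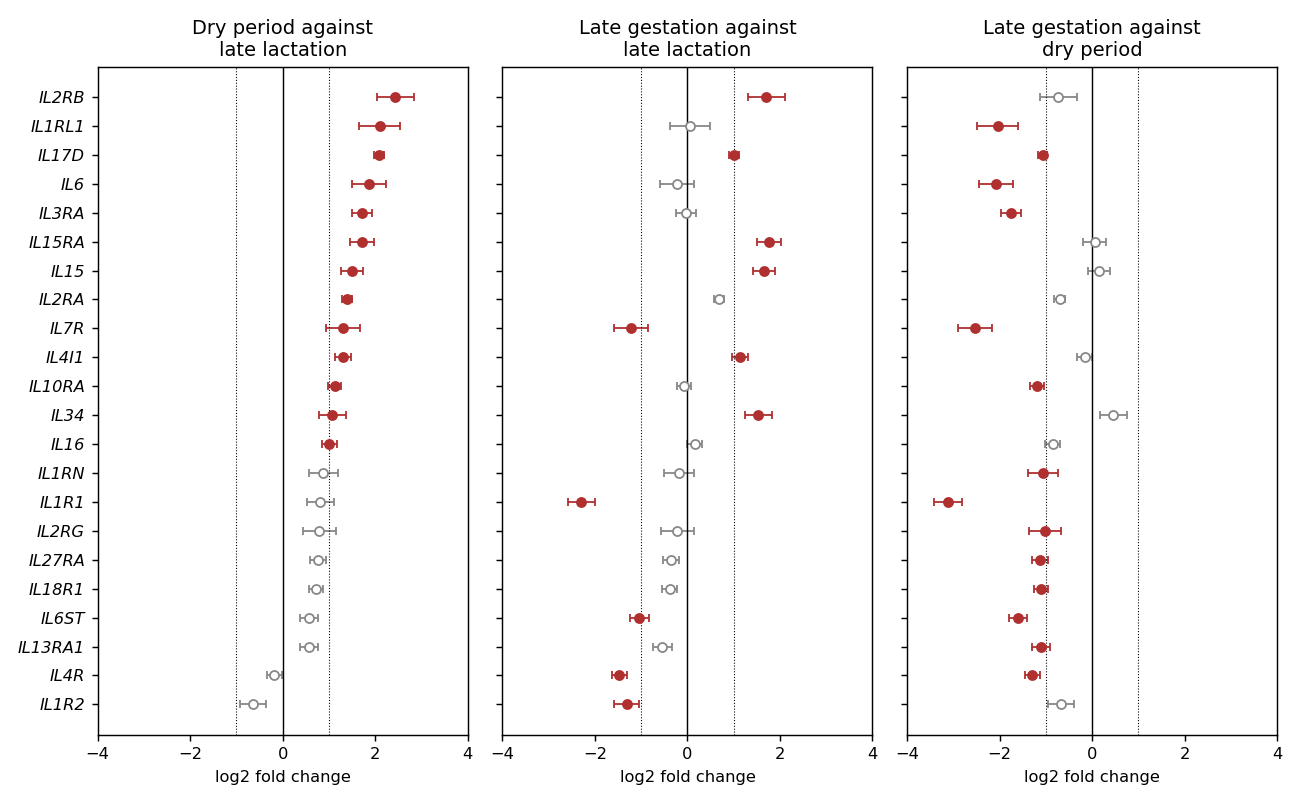
Log2 fold change with its standard error for the 22 members called in at least 1 comparison, on the log2(scaled FPKM + 1) scale. Filled red points are called, open grey points are not, and dotted lines mark a change of 1 in size; called genes lie to the right in DP against LL and to the left in LG against DP.

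Among the tested ligands, IL6, IL17D and IL16 stood apart in DP from both other stages. IL6 (gene ID 100860785, chromosome 4, 89125124 to 89129007), a cytokine of the acute phase response and of lymphocyte growth, was at 0.362, 0.506 and 0.413 scaled FPKM during LL, 7.18, 1.46 and 5.93 during DP and 0.167, 0.219 and 0.289 during LG. Every DP library lay above the other 6, and DP replicate 2 was well below DP replicates 1 and 3. IL6 reached the level for testing through DP alone, so a difference from DP was a condition of its being tested. It rose in DP against LL (log2 fold change 1.86, standard error 0.37, adjusted p = 0.00222) and fell in LG against DP (log2 fold change -2.08, standard error 0.37, adjusted p = 0.00226). The LG libraries lay just below those of LL, a difference that was not called (log2 fold change -0.22, standard error 0.37, adjusted p = 0.64).

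IL6 acts through its receptor IL6R and the shared chain IL6ST. IL6ST (gene ID 102188086, chromosome 20, 23233087 to 23301937) was at 25.7, 28.4 and 33.5 scaled FPKM during LL, 36.8, 50.5 and 44.4 during DP and 12.6, 11.4 and 17.7 during LG, the highest mean of all receptor chains in LL and in DP. Its 3 stages did not overlap, with LG lowest. It fell in LG against DP (log2 fold change -1.61, standard error 0.20, adjusted p = 0.000348) and, just past the threshold, in LG against LL (log2 fold change -1.04, standard error 0.20, adjusted p = 0.00212), where without scaling the value was 0.084 and the call was also lost without LL replicate 3 (-0.94), LG replicate 1 (-0.98) or LG replicate 2 (-0.92). IL6R (gene ID 102179824, chromosome 3, 103968958 to 104023983) was at 9.18, 8.50 and 8.32 during LL, 12.5, 8.83 and 9.35 during DP and 5.39, 5.63 and 5.51 during LG. The LG libraries were the lowest, but the log2 differences of -0.57 from LL and -0.77 from DP were under 1 in size (adjusted p = 0.00737 and 0.00244). IL11RA, the receptor of IL-11, was not called in any comparison, at 8.15 ± 0.632 scaled FPKM during LL, 8.004 ± 2.52 during DP and 10.8 ± 0.977 during LG (SD, n = 3 each), while the ligand IL11 was at most 0.380 FPKM.

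**Figure D3:**
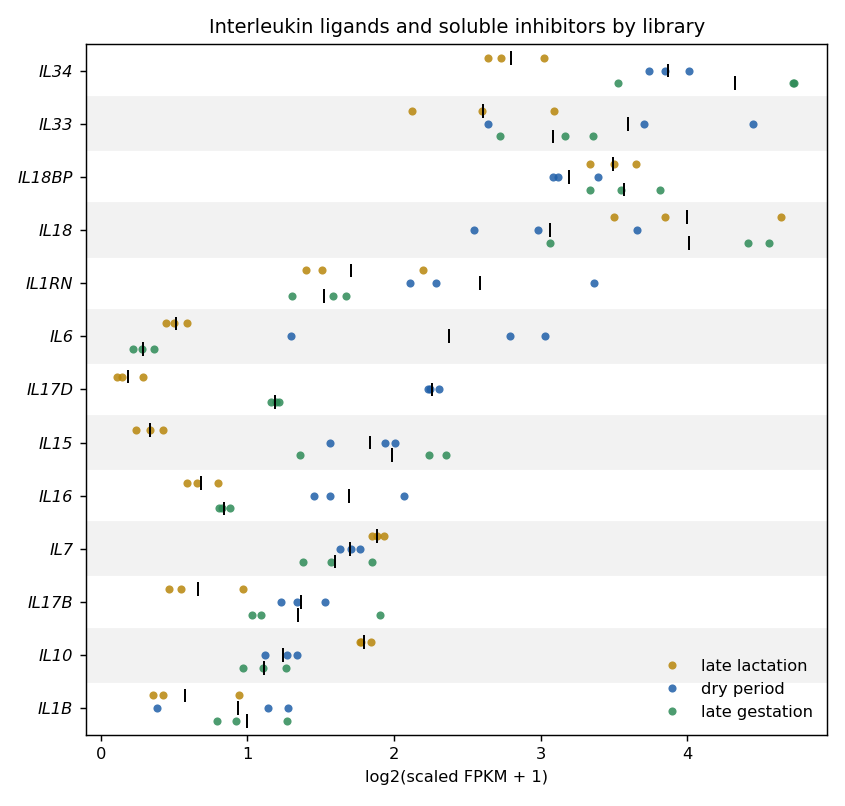
Level of each tested ligand and of the inhibitors IL1RN and IL18BP in every library, as log2(scaled FPKM + 1), with 3 points per stage and a black bar at their mean, in order of the DP mean. IL6, IL16 and IL17D separate DP from both other stages. IL15, IL17B and IL34, among others, are lowest in LL without overlap, and IL10 is highest there.

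IL15 and its private receptor chain IL15RA, which presents IL-15 to natural killer and memory T cells, were both lowest in LL. IL15 (gene ID 102180957, chromosome 17, 54825724 to 54922809) was at 0.181, 0.344 and 0.264 scaled FPKM during LL, 2.84, 3.02 and 1.96 during DP and 3.72, 4.11 and 1.57 during LG. IL15RA (gene ID 102171722, chromosome 13, 10736486 to 10772794) was at 0.201, 0.127 and 0.0826 during LL, 2.11, 2.37 and 3.94 during DP and 3.80, 3.67 and 1.57 during LG. For both genes the LL libraries were lowest without overlap, and DP and LG overlapped. IL15 rose in DP against LL (log2 fold change 1.504, standard error 0.24, adjusted p = 0.000735) and in LG against LL (log2 fold change 1.65, standard error 0.24, adjusted p = 0.00055). IL15RA did likewise, by 1.71 (standard error 0.25, adjusted p = 0.000419) and 1.77 (standard error 0.25, adjusted p = 0.000466). Both had no LL library at 0.5 FPKM.

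The chains that IL-15 shares with IL-2 behaved in several ways. IL2RB (gene ID 106502126, chromosome 5, 74223412 to 74240548), the beta chain of both receptors, was at 0.562, 0.271 and 0 scaled FPKM during LL, 12.7, 3.98 and 3.58 during DP and 3.21, 4.55 and 1.93 during LG. LL was lowest without overlap, LL replicate 3 was listed at 0, and DP replicate 1 stood far above the rest. IL2RB rose in DP (log2 fold change 2.43, standard error 0.40, adjusted p = 0.000812) and in LG (log2 fold change 1.70, standard error 0.40, adjusted p = 0.00635) against LL. IL2RA (gene ID 102170059, chromosome 13, 10789325 to 10832864), the alpha chain of the high affinity IL-2 receptor and a marker of activated and regulatory T cells, was at 0.141, 0.217 and 0.198 during LL, 2.02, 2.10 and 2.18 during DP and 0.835, 0.835 and 1.03 during LG. Its 3 stages were well apart, with LL lowest and DP highest, and it rose in DP against LL (log2 fold change 1.39, standard error 0.11, adjusted p = 1.19e-05), while the differences of LG from LL, 0.68, and from DP, -0.71, were under 1 in size (adjusted p = 0.000942 and 0.00124). A gene on the other strand shares 4461 bases with IL2RA. Neither IL2RA nor IL2RB had an LL library at 0.5 FPKM, and both were tested through DP and LG. IL2RG (gene ID 102169656, chromosome X, 10648684 to 10652340), the common gamma chain, was at 6.99, 3.56 and 3.96 during LL, 16.1, 7.89 and 5.22 during DP and 4.08, 4.78 and 2.91 during LG. DP replicate 1 was the highest and LL and DP overlapped (log2 fold change 0.80, standard error 0.35, adjusted p = 0.0771). IL2RG was called higher in DP without LL replicate 1 (1.05) or DP replicate 3 (1.13), and without DP replicate 1 the value was 0.40. The call of IL2RG as lower in LG against DP (log2 fold change -1.02, standard error 0.35, adjusted p = 0.0484) was lost in 11 alternatives, among them the fit without DP replicate 1, where the value was -0.61. The ligand IL2 was at most 0.170 FPKM and at 0 in all LL and LG libraries.

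IL7R, the receptor of the lymphocyte survival factor IL-7, had the largest fall of this family from DP to LG. IL7R (gene ID 102175248, chromosome 20, 38262887 to 38298648) was at 6.07, 4.75 and 4.61 scaled FPKM during LL, 22.6, 17.8 and 6.77 during DP and 1.16, 2.53 and 1.35 during LG. The 3 stages did not overlap, with LG lowest. IL7R rose in DP against LL (log2 fold change 1.31, standard error 0.36, adjusted p = 0.0129), a call that ended without DP replicate 1 (0.98). It fell in LG against DP (log2 fold change -2.53, standard error 0.36, adjusted p = 0.000804) and in LG against LL (log2 fold change -1.22, standard error 0.36, adjusted p = 0.0191), and this last call ended without scaling (-0.34) or without LL replicate 1, LG replicate 1 or LG replicate 3 (adjusted p 0.0596 to 0.0647). The ligand IL7 was at 2.70 ± 0.103 scaled FPKM during LL, 2.26 ± 0.151 during DP and 2.06 ± 0.509 during LG (SD, n = 3 each), with adjusted p = 0.247, 0.0918 and 0.571 for DP against LL, LG against LL and LG against DP. No difference of the ligand reached 1 in size, whereas all 3 comparisons of its receptor were called.

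IL4R, which carries the IL-4 and IL-13 signal with IL2RG or IL13RA1, was lowest in LG. IL4R (gene ID 102176382, chromosome 25, 24784672 to 24834756) was at 10.9, 10.3 and 11 scaled FPKM during LL, 7.19, 9.73 and 11.7 during DP and 3.34, 3.61 and 2.77 during LG. The LG libraries lay below the other 6, and LL and DP overlapped (adjusted p = 0.367). It fell in LG against LL (log2 fold change -1.48, standard error 0.16, adjusted p = 0.000108) and against DP (log2 fold change -1.30, standard error 0.16, adjusted p = 0.000419), the former -0.46 and not called without scaling. IL13RA1 (gene ID 102171312, chromosome X, 25113483 to 25189507), at 15.8, 12.8 and 18.2 during LL, 17.2, 27.0 and 27.5 during DP and 11.2, 9.57 and 10.3 during LG, fell in LG against DP (log2 fold change -1.11, standard error 0.20, adjusted p = 0.00251), and without DP replicate 3 the value was -0.99 and was not called. Its ligands IL4 and IL13 were at most 0.140 and 0.0800 FPKM. IL21R, the IL-21 receptor chain, was at 2.01, 0.499 and 0.459 scaled FPKM in DP, where only replicate 1 was above 1, and at most 0.430 in the other stages (adjusted p = 0.0889 for DP against LL).

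The IL-1 family gave the largest fall among all members. IL1R1 (gene ID 102187231, chromosome 11, 6746282 to 6840148), the signalling receptor of IL-1 alpha and beta, was at 9.56, 17.5 and 8.32 scaled FPKM during LL, 14.1, 20.4 and 29.8 during DP and 1.42, 1.33 and 1.71 during LG. The LG libraries lay well below the other 6, while LL replicate 2 exceeded DP replicate 1. It fell in LG against DP (log2 fold change -3.12, standard error 0.29, adjusted p = 0.000117) and in LG against LL (log2 fold change -2.30, standard error 0.29, adjusted p = 0.000242), and both calls held in the alternatives run. In DP against LL the difference of 0.82 was under 1 (adjusted p = 0.0377), and it was called without LL replicate 2 (1.12) or DP replicate 1 (1.07). IL1R2 (gene ID 102186601, chromosome 11, 6611732 to 6648492), a decoy that binds IL-1 without signalling, was at 3.98, 1.63 and 1.25 during LL, 0.785, 1.53 and 0.716 during DP and 0.259, 0.251 and 0.213 during LG. It too was lowest in LG, and fell in LG against LL (log2 fold change -1.32, standard error 0.27, adjusted p = 0.00347), a call lost without scaling (-0.73) or without LL replicate 1 (-0.97). The accessory chain IL1RAP was at 5.54, 2.87 and 3.83 during LL, 3.12, 3.90 and 4.68 during DP and 1.19, 1.55 and 3.87 during LG, where LG replicate 3 was apart from the other two, and it was not called in any comparison. Without LG replicate 3, IL1RAP was called lower in LG than in LL (-1.07) and in DP (-1.04).

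The IL-1 ligands were low. IL1B (gene ID 100860816, chromosome 11, 46178464 to 46186246), a main inflammatory cytokine of macrophages, was at 0.924, 0.344 and 0.281 scaled FPKM during LL, 1.42, 0.305 and 1.21 during DP and 1.41, 0.900 and 0.731 during LG. All stages overlapped, DP replicate 2 was the second lowest of the 9 libraries, and the log2 fold changes of 0.36, 0.42 and 0.06 had adjusted p = 0.253, 0.201 and 0.875. IL1A was at most 0.590 FPKM and was not tested. IL1RN (gene ID 102182800, chromosome 11, 46473068 to 46495381), the IL-1 receptor antagonist, was at 3.60, 1.65 and 1.85 scaled FPKM during LL, 3.31, 9.32 and 3.88 during DP and 2.004, 2.19 and 1.48 during LG, with DP replicate 2 well above the rest. In DP against LL its difference of 0.88 (adjusted p = 0.0398) was called without LL replicate 1 (1.13), DP replicate 1 (1.12) or DP replicate 3 (1.03). Its call as lower in LG against DP (log2 fold change -1.06, standard error 0.32, adjusted p = 0.029) was lost without DP replicate 2 (-0.67) and in 5 other alternatives, among them the fits without each of the LG replicates.

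IL33, an alarm signal of epithelium and stroma, and its receptor IL1RL1 (ST2) differed in how their goats spread. IL33 (gene ID 102176795, chromosome 8, 38337407 to 38408297) was at 5.06, 7.54 and 3.35 scaled FPKM during LL, 12.04, 5.25 and 20.8 during DP and 9.26, 7.99 and 5.59 during LG, and was not called in any comparison (0.99, adjusted p = 0.0647, for DP against LL). Without DP replicate 2 this value was 1.47 and IL33 was called higher in DP, and without DP replicate 3 it was 0.57. Within DP it was highest in replicate 3 and lowest in replicate 2. IL1RL1 (gene ID 102188323, chromosome 11, 7000072 to 7027610) was at 0.261, 0.163 and 0.182 during LL, 1.58, 11.2 and 3.33 during DP and 0.217, 0.259 and 0.259 during LG, with replicate 2 the highest of DP. All DP libraries lay above the other 6. In DP against LL it rose (log2 fold change 2.10, standard error 0.44, adjusted p = 0.00305), and in LG against DP it fell (log2 fold change -2.05, standard error 0.44, adjusted p = 0.00614), and it passed the filter through DP alone.

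IL18, which drives interferon gamma release, was the most abundant ligand in LL, at 15.9 ± 7.14 scaled FPKM during LL, 7.79 ± 3.47 during DP and 16.8 ± 8.19 during LG (SD, n = 3 each). In single libraries it was at 23.9, 13.4 and 10.3 during LL, 11.6, 6.90 and 4.85 during DP and 22.5, 20.3 and 7.37 during LG, so goats of one stage differed by about as much as the stages, and no comparison was called (adjusted p = 0.096, 0.979 and 0.124). Without LG replicate 3, IL18 was higher in LG than in DP by 1.42 on the log2 scale and was called. Its receptor chain IL18R1 (gene ID 100861236, chromosome 11, 7031921 to 7065577) was at 0.562, 0.597 and 0.628 during LL, 2.06, 1.88 and 1.09 during DP and 0.284, 0.146 and 0.236 during LG, and fell in LG against DP (log2 fold change -1.11, standard error 0.16, adjusted p = 0.000706), with -0.98 and no call after quantile normalization. IL18RAP, the second chain, was at 0.732 ± 0.329 during LL, 0.597 ± 0.233 during DP and 0.134 ± 0.0735 during LG (SD, n = 3 each) and was not called. The IL-18 binding protein gene IL18BP shares 2068 bases with RNF121 on the same strand, and its FPKM followed those of RNF121 by a straight line to within 2.75% of their range. IL18BP, at 10.3 ± 1.21 during LL, 8.21 ± 1.103 during DP and 10.97 ± 2.005 during LG (SD, n = 3 each), was not called, and the pair may not be separate measurements.

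Most of the IL-1 receptor genes lie together. In the order IL1R2, IL1R1, IL1RL2, IL1RL1, IL18R1 and IL18RAP they span chromosome 11 from 6611732 to 7107760 of ARS1.2. Along this stretch the stage with the highest mean was LL for IL1R2 and IL18RAP and DP for IL1R1, IL1RL1 and IL18R1. For IL1R2 and IL18RAP the LL and DP libraries overlapped, and without scaling the DP mean was the higher in both (log2 differences 0.17 and 0.42). IL1RL2, an IL-36 receptor chain in their midst, was at most 0.150 FPKM. In IL1R2, IL1R1, IL18R1 and IL18RAP all 3 LG libraries lay below the other 6 in scaled FPKM, and in IL1RL1 LL and LG overlapped. The share of all genes with LG so placed was not taken. In FPKM without scaling, LL and LG overlapped for IL18R1 (0.28 to 0.38 and 0.18 to 0.34). They did so for IL18RAP too (0.24 to 0.54 and 0.11 to 0.27). The IL-1 ligand and antagonist genes form a second group on the same chromosome, from 46120083 (IL1A) to 46495381 (IL1RN). In it IL1B and IL1RN alone reached the level for testing, IL37 was at most 0.0300 FPKM, and IL36B, IL36RN and IL1F10 were listed at 0.

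**Figure D4:**
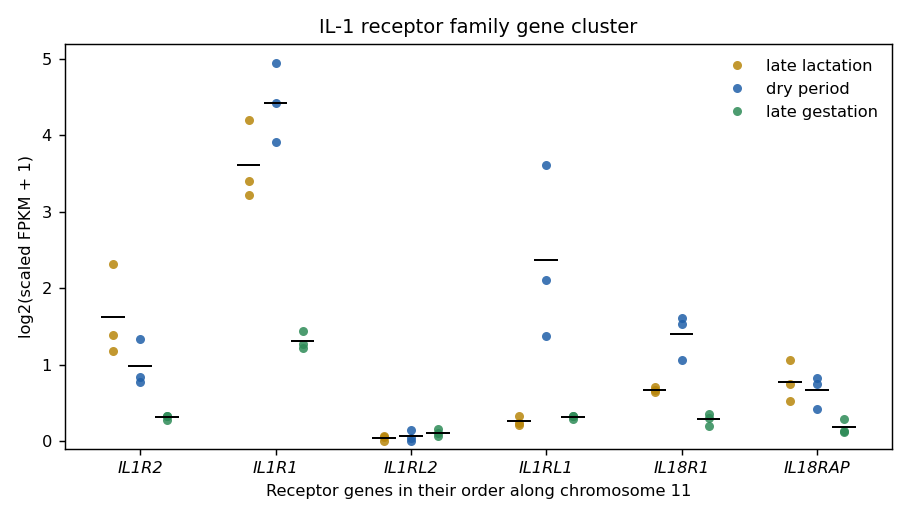
The 6 IL-1 receptor family genes of the chromosome 11 group in their order along the chromosome, as log2(scaled FPKM + 1) in every library, with 3 points per stage and a black bar at their mean. IL1R1, with 14.1 to 29.8 scaled FPKM in DP, stands beside IL1RL2, which is near 0 in all 9 libraries.

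Within the IL-17 family, the ligand IL17D differed little between goats of one stage and much between stages. IL17D (gene ID 106502702, chromosome 12, 50904379 to 50938438), a ligand of non-lymphoid tissues, was at 0.221, 0.108 and 0.0826 scaled FPKM during LL, 3.96, 3.75 and 3.69 during DP and 1.24, 1.32 and 1.29 during LG. The 3 stages did not overlap, with DP highest and LL lowest. No LL library of IL17D reached 0.5 FPKM, so a higher value in DP or LG was a condition of its being tested. It rose in DP against LL (log2 fold change 2.08, standard error 0.10, adjusted p = 1.30e-06) and fell in LG against DP (log2 fold change -1.07, standard error 0.10, adjusted p = 0.000134). The rise in LG against LL (log2 fold change 1.01, standard error 0.10, adjusted p = 7.49e-05) was at the threshold and was not called after quantile normalization (0.89) or without LL replicate 2 (0.99), LL replicate 3 (0.97) or LG replicate 2 (0.99). EEF1AKMT1 on the other strand shares 4746 bases with IL17D, and the counting is not stated to use strand. IL17B was at 0.602 ± 0.316 during LL, 1.59 ± 0.275 during DP and 1.64 ± 0.958 during LG (SD, n = 3 each) and was not called. IL17A, IL17C, IL17F and IL25, the ligands of T cells and epithelium, were at most 0.960 FPKM and were not tested.

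IL17RA (gene ID 102177420, chromosome 5, 107733451 to 107749313), the chain common to the IL-17 receptors, was at 9.98, 10.6 and 12.02 scaled FPKM during LL, 16.6, 18.9 and 25.8 during DP and 12.9, 15.9 and 15.4 during LG, and had the highest mean of all receptor chains in LG. DP lay above LL and LG without overlap, with differences under 1 in size (0.83, adjusted p = 0.00315, against LL). In LG its mean of 14.7 ± 1.62 was within the spread of IL6ST at 13.9 ± 3.34 (SD, n = 3 each). IL17RC was at 7.48 ± 1.28 during LL, 11.2 ± 1.81 during DP and 6.88 ± 0.400 during LG, IL17RE, its neighbour on the same strand, at 3.86 ± 1.14, 4.82 ± 1.14 and 3.27 ± 1.31, and IL17RD at 0.624 ± 0.0749, 1.95 ± 0.598 and 2.19 ± 0.679 (SD, n = 3 each). None of them was called. IL17RB was highest in LL, at 2.58 ± 0.363 against 1.54 ± 0.226 during DP and 1.40 ± 0.183 during LG (SD, n = 3 each), with differences of -0.498 and -0.58 from LL (adjusted p = 0.00812 and 0.00436). Without scaling IL17RB had the opposite direction in both, 0.42 and 0.17. It was 1 of only 2 members with an adjusted p under 0.05 and a lower value in DP than in LL.

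The other was IL10, the main anti-inflammatory interleukin. IL10 (gene ID 100860746, chromosome 16, 3911735 to 3918077) was at 2.43, 2.40 and 2.59 scaled FPKM during LL, 1.18, 1.42 and 1.53 during DP and 1.40, 1.15 and 0.959 during LG, so the LL libraries lay above the other 6. The differences of -0.55 in DP and -0.68 in LG against LL were under 1 in size (adjusted p = 0.00345 and 0.00133), and without scaling they were 0.35 and 0.049. Its receptor chain IL10RA went the other way in DP. IL10RA (gene ID 102188959, chromosome 15, 53663148 to 53677406), the ligand-binding chain of leukocytes, was at 2.63, 2.95 and 3.27 during LL, 7.15, 9.30 and 6.53 during DP and 2.85, 3.14 and 2.26 during LG, with DP above the other 6 libraries. IL10RA rose in DP against LL (log2 fold change 1.12, standard error 0.15, adjusted p = 0.000217), a call lost without DP replicate 2 (0.99), and it fell in LG against DP (log2 fold change -1.20, standard error 0.15, adjusted p = 0.000376). IL10RB, the second chain, was at 4.43 ± 0.0536 during LL, 6.98 ± 1.17 during DP and 5.01 ± 1.45 during LG (SD, n = 3 each) and was not called. IL19, IL20 and IL24, which lie next to IL10 on chromosome 16, were at or near 0, the highest value being 0.570 FPKM for IL24. Their receptor chains were low but measurable, IL20RA at 0.531 ± 0.0976 during LL, 1.19 ± 0.458 during DP and 0.377 ± 0.129 during LG and IL20RB at 0.447 ± 0.248, 0.518 ± 0.277 and 1.03 ± 0.929 (SD, n = 3 each), and neither was called.

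Further calls fell to single members. IL34 (gene ID 102173115, chromosome 18, 2761437 to 2822119), a ligand of the macrophage growth factor receptor CSF1R, was at 7.11, 5.62 and 5.25 scaled FPKM during LL, 13.4, 15.1 and 12.3 during DP and 25.4, 25.3 and 10.5 during LG. LL was lowest without overlap, LG replicate 3 lay below DP, and IL34 had the highest ligand mean in DP and in LG, within the spread of IL33 in DP and of IL18 in LG. It rose in LG against LL (log2 fold change 1.53, standard error 0.29, adjusted p = 0.00226) and in DP against LL (log2 fold change 1.07, standard error 0.29, adjusted p = 0.0117), the latter lost without LL replicate 3 (0.99) or DP replicate 2 (0.99). CSF1R itself was at 12.6, 9.45 and 11.3 during LL, 33.8, 18.9 and 25.5 during DP and 9.47, 10.2 and 8.93 during LG. The ligand and the receptor thus had different stage orders, LG being high for IL34 and low for CSF1R.

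IL16 (gene ID 100860884, chromosome 21, 26623232 to 26737321), a chemoattractant for CD4+ cells, was at 0.743, 0.506 and 0.578 scaled FPKM during LL, 3.19, 1.96 and 1.74 during DP and 0.751, 0.843 and 0.776 during LG. DP lay above the other 6 libraries, and the rise in DP against LL (log2 fold change 1.01, standard error 0.16, adjusted p = 0.000723) was just past the threshold, and was not called without DP replicate 1 (0.83), LL replicate 2 (0.96) or LL replicate 3 (0.999) or after quantile normalization (0.47). IL3RA (gene ID 102178527, on an unplaced scaffold), the IL-3 receptor alpha chain of basophils and plasmacytoid dendritic cells, was at 0.824, 0.217 and 0.182 during LL, 2.69, 3.79 and 4.26 during DP and 0.635, 0.292 and 0.152 during LG. In DP against LL it rose (log2 fold change 1.72, standard error 0.21, adjusted p = 0.000153), and in LG against DP it fell (log2 fold change -1.75, standard error 0.21, adjusted p = 0.000364), and LL and LG overlapped. The beta chain CSF2RB, with which it signals, went the opposite way from LL to DP, at 191, 163 and 151 during LL, 7.79, 9.79 and 10.1 during DP and 18.7, 14.5 and 13.3 during LG (log2 fold change -4.05, adjusted p = 4.35e-07, for DP against LL). Neither IL16 nor IL3RA had an LL library at 0.5 FPKM, and both were tested through the other stages.

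IL27RA (gene ID 102189572, chromosome 7, 97017381 to 97053439), the IL-27 receptor chain, was at 15.2, 11.7 and 9.91 scaled FPKM during LL, 24.1, 20.1 and 19.7 during DP and 9.13, 8.19 and 10.4 during LG, and fell in LG against DP (log2 fold change -1.12, standard error 0.17, adjusted p = 0.00111). It shares 9246 bases with PALM3 on the other strand. Its FPKM followed those of the neighbouring gene MISP3 by a straight line to within 0.910% of their range, so the pair may not be separate measurements. The ligand IL27 was at most 0.530 FPKM. The IL-12 and IL-23 genes IL12A, IL12B, IL23A, IL23R, IL12RB1 and IL12RB2 were below the level for testing, with IL12RB1 in DP replicate 1 the highest at 1.57 FPKM. IL4I1 (gene ID 102186899, chromosome 18, 57244342 to 57249586), a secreted amino acid oxidase of antigen-presenting cells and no interleukin, was at 0.783, 0.325 and 0.281 scaled FPKM during LL, 3.36, 2.19 and 2.29 during DP and 2.10, 2.02 and 2.47 during LG. It rose in DP (log2 fold change 1.30, standard error 0.17, adjusted p = 0.000196) and in LG (log2 fold change 1.14, standard error 0.17, adjusted p = 0.000586) against LL, and after quantile normalization the values were 0.90 and 0.87 and were not called. No LL library of IL4I1 reached 0.5 FPKM, and it was tested through DP and LG.

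Most of the members below the level for testing were ligands, 25 of 38. IL2, IL4, IL13, IL17A and IL21 were each at most 0.350 FPKM, and IL5, which acts on eosinophils, at most 0.530 FPKM, in a tissue where the T cell genes CD3D and CD3E were detected. The highest of the 38 were receptor chains, IL12RB1 and, at 1.05 FPKM, IL12RB2, followed by the ligand IL17F at 0.960. IL22RA1, the epithelial chain of the IL-22 receptor, was at 0.0400, 0.1 and 0.950 FPKM in DP and at 0 in all LL libraries. IL26 reached 0.710, IL32 0.630 and IL9R 0.550 FPKM, and the decoy receptors IL13RA2 and IL22RA2 0.440 and 0.340 FPKM. IL5RA, IL17REL, IL31RA and IL1RAPL2 were at most 0.340 FPKM. With no depth in the table, values this low carry no stated precision, and no fold is given for them.

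Sorted by stage pattern, 6 members (IL6, IL17D, IL1RL1, IL3RA, IL7R and IL10RA) were called higher in DP than in LL and lower in LG than in DP, where 3.78% of all genes were, and IL6 and IL1RL1 among them had passed the filter through DP alone. A further pattern of 6 members, IL15, IL34, IL17D, IL15RA, IL2RB and IL4I1, was called higher than LL in both DP and LG, against 6.78% of all genes. Of these, IL34 alone had an LL library at 0.5 FPKM. Called lower in LG than in both other stages were 4 receptor chains (IL1R1, IL4R, IL6ST and IL7R) and no ligand, against 1.39% of all genes. Without scaling, IL4R, IL6ST and IL7R were not called in LG against LL (-0.46, 0.084 and -0.34). By role, 5 ligands and 7 receptor chains were among the 13 called higher in DP against LL, and 2 ligands (IL6 and IL17D), 1 antagonist (IL1RN) and 11 receptor chains were among the 14 called lower in LG against DP. The difference between ligands and receptors was not tested.

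Most leukocyte, T cell and fibroblast markers were also called higher in DP than in LL, where 13.8% of all genes tested were. In whole tissue, fewer cells of a type and less RNA per cell cannot be told apart. The 5 leukocyte markers summed to 51.2 to 69.4 scaled FPKM during LL, 93.7 to 199 during DP and 45.2 to 70.5 during LG, and 3 of them (PTPRC, CORO1A and LAPTM5) were called higher in DP than in LL. The 8 T cell markers found in the table summed to 6.99 to 7.11 during LL, 23.6 to 72.9 during DP and 24.3 to 41.6 during LG, with 7 of 8 called higher in DP against LL (all but CD4). Of those called, CD3D, CD3G, CD5, CD8A and LCK had no LL library at 0.5 FPKM and were tested through the other stages. Of all genes with so low an LL level, 59.8% were called higher in DP. The 11 myeloid markers found summed to 153 to 183 during LL, 285 to 335 during DP and 149 to 158 during LG, with 6 of 11 called higher in DP against LL and 9 of 11 called lower in LG against DP. Over all genes 6.88% were called lower in LG against DP. The 6 fibroblast markers summed to 212 to 324 during LL, 502 to 2392 during DP and 521 to 954 during LG, and 5 of 6 were called higher in DP against LL. The B and plasma cell list went the other way, at 193 to 847 during LL, 41.1 to 140.1 during DP and 11.4 to 23.4 during LG, with 3 of its 7 genes tested and JCHAIN of plasma cells called lower in DP (-2.37, adjusted p = 0.00749). The myeloid gene FCER1G had a lower scaled level in DP too (-0.78, adjusted p = 0.00163), and 0.59 without scaling. No marker of these lists that was found in the table was at 0 in every library. The part of these cells in the interleukin results was not tested.

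**Figure D5:**
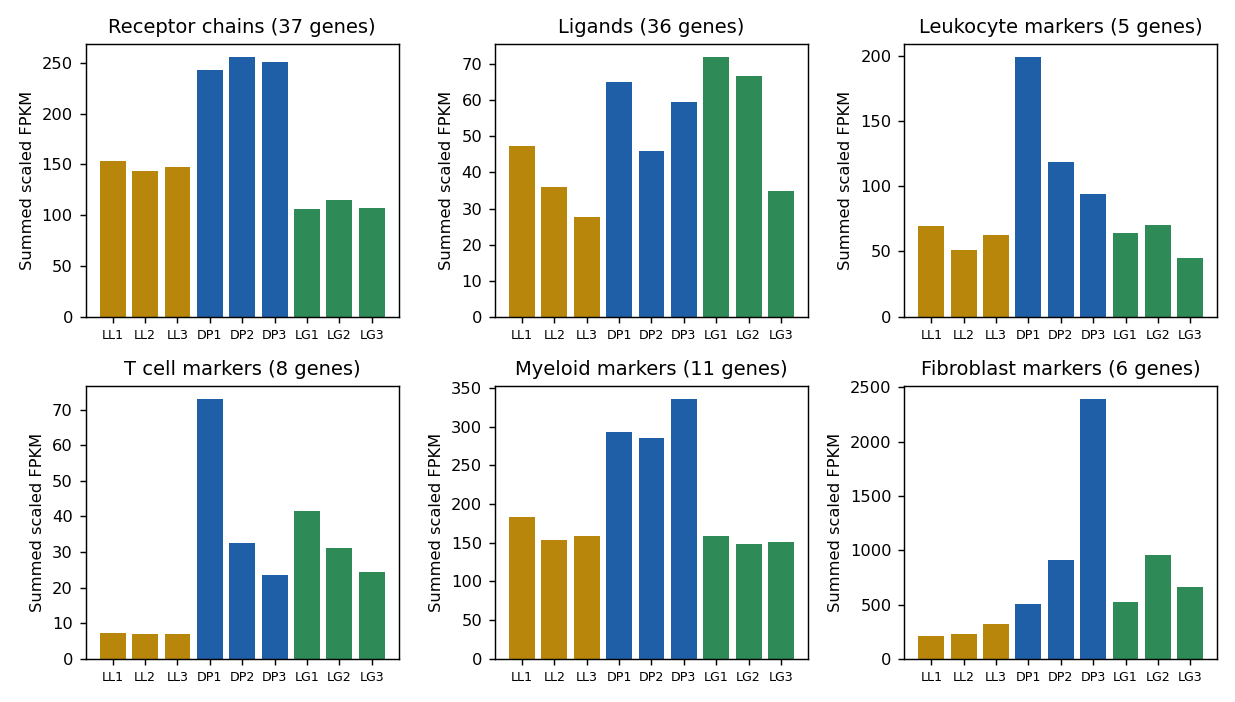
Summed scaled FPKM in every library for the receptor chains, the ligands and 4 lists of cell type markers, with each bar 1 library and the axes starting at 0. The receptor sum is even within DP (243 to 256), whereas the leukocyte sum runs from 93.7 to 199 and the fibroblast sum from 502 to 2392 among the same 3 libraries.

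The 3 DP goats differed from one another in which members were high. DP replicate 1 had the highest leukocyte and T cell sums, and the highest DP values of IL2RB, IL2RG, IL7R, IL21R, IL16 and IL6. It was also apart in the B cell gene MS4A1, at 5.03, 0.0902 and 0.111 scaled FPKM in DP, and the adipocyte gene ADIPOQ, at 12.6, 0.548 and 1.195. DP replicate 2 had the highest IL1RL1, IL1RN, IL10RA and IL6ST and the lowest IL6, IL1B and IL33 of DP. DP replicate 3 had the highest fibroblast sum and the highest IL33, IL1R1, IL15RA and IL17RA. Without DP replicate 1, 11 members were called higher in DP against LL and 10 lower in LG against DP, and without DP replicate 2 the counts were 10 and 9. In both cases 38 members were tested in place of 42, since the others, IL6, IL1RL1 and IL18R1 among them, no longer reached 0.5 FPKM in 3 libraries.

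Of 40 other genes of interleukin signalling on a list, 35 were found in the table and 32 were tested. In DP against LL 7 were called higher and 3 lower, in LG against LL 2 higher and 6 lower, and in LG against DP 0 higher and 8 lower, with medians of 0.18, -0.26 and -0.33. Over all genes 13.8% were called higher and 8.79% lower in the first, 10.7% and 6.61% in the second and 6.37% and 6.88% in the third comparison. SOCS3, the feedback inhibitor of the IL-6 receptor, was at 3.25, 4.99 and 4.77 scaled FPKM during LL, 12.4, 9.57 and 31.3 during DP and 0.977, 2.21 and 1.202 during LG. It rose in DP against LL (log2 fold change 1.65, standard error 0.37, adjusted p = 0.00443) and fell in LG against DP (log2 fold change -2.79, standard error 0.37, adjusted p = 0.000538) and LG against LL (-1.13, adjusted p = 0.0287), the stage order of IL6ST in scaled FPKM. Without scaling, LG against LL gave -0.29 for SOCS3 and 0.084 for IL6ST. SOCS1, the feedback inhibitor of gamma chain and interferon receptors, rose by 1.23 in DP against LL (adjusted p = 0.000142). JAK3, the kinase bound to IL2RG, rose in DP against LL (1.98, adjusted p = 0.000926) and fell in LG against DP (-1.19, adjusted p = 0.0215), as did STAT6, the factor downstream of IL4R (1.03, adjusted p = 0.0001, and -1.46, adjusted p = 6.58e-05). JAK1 was lower in DP (-1.02, adjusted p = 0.00476) and in LG (-1.06, adjusted p = 0.00455) than in LL, but without scaling the values of JAK1 turned to 0.36 and 0.096. In the IL-1 pathway IRAK3, which restrains the signal, and IRAK2, which carries it, rose by 1.62 and 1.02 in DP against LL (adjusted p = 6.68e-05 and 0.000695), as did GSDMD, whose pores release IL-1 beta (1.41, adjusted p = 0.000608). NLRP3, the sensor for IL-1 beta processing, fell in LG against DP (-1.53, adjusted p = 0.000151). SOCS1, JAK3, IRAK2, IRAK3 and GSDMD had no LL library at 0.5 FPKM. Of the other gp130 family chains, LIFR fell in DP (-1.08, adjusted p = 0.00275) and in LG (-1.81, adjusted p = 0.000179) against LL, with 0.24 in DP without scaling, and OSMR fell in LG against LL (-2.08, adjusted p = 0.000772) and DP (-2.61, adjusted p = 0.000387).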

How the data were processed

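Whole mammary tissue RNA of 9 goats, 3 each in LL, DP and LG, was sequenced by the authors as 1 library per goat (TruSeq RNA Library Prep Kit v2). The deposited table holds 1 FPKM value per gene and library, per the authors' methods. The submitters' processing notes name FastQC, Trimmomatic, HISAT2, SAMtools and HTSeq without versions, while the study's methods name StringTie for quantification. Which of HTSeq and StringTie gave these values, how values per gene were formed and whether strand was used is not given in the sources used here. All 23465 gene identifiers found in the RefSeq annotation of ARS1.2 had the same start and end there. Groups were taken from the sample labels.

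FPKM were divided by median-ratio factors from 15905 genes, which changes every fold against LL, and log2(scaled FPKM + 1) was fitted in limma 3.58.1 (R 4.3.3) to all 9 libraries, with empirical Bayes moderation and a mean-variance trend. The 14701 genes that reached 0.5 FPKM in 3 or more libraries entered two-sided tests, and p-values were adjusted by Benjamini-Hochberg over all of them. Python 3.11.15, numpy 2.4.6 and pandas 2.3.3 made the summaries and matplotlib 3.10.9 the plots. With 3 goats per stage, each test used the spread between goats within a stage, pooled over all 3 stages. A gene thus had the same standard error in every comparison, also where 1 stage alone was variable.

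The members, the roles and the lists were chosen with earlier results of these data known. Named in full were all members called in at least 1 comparison and a list of 21 members of the IL-1, IL-6, IL-10, IL-17 and gamma chain systems. Other members were named after their values were seen, with the highest FPKM for those below the filter. Of the pathway and marker lists, CASP1, CASP4, PYCARD, TSLP, STAT5A, TRAT1, ZAP70, CD163, S100A12, FCGR3A and FABP4 were not analysed here. The alternatives were no scaling, quantile normalization, a pseudocount of 0.1, no filter, a filter of 2 FPKM, the compared stages alone, a replicate block, no trend, an adjusted p alone and leaving out each library in turn.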

Additional observations from a re-analysis of the deposited data

How the results depend on the processing

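Of 38 gene results called among 30 members followed through the alternatives, 23 kept direction and call in each alternative in which the gene was tested, and 15 lost the call in at least 1. Not tested were IL6, IL1RL1 and IL18R1 without a DP library, IL10, IL1B, IL1R2 and IL18R1 with a filter of 2 FPKM and, in some comparisons of 2 stages alone, IL6, IL1B, IL1RL1, IL3RA and IL18R1. Without scaling, which moves the median of all genes, 32 members were called higher in DP against LL, and in LG against LL 14 were called higher and 1 lower. No share of all genes called was taken for that fit. An adjusted p alone gave 25 higher and 2 lower in DP against LL and 10 lower in LG against LL, and a pseudocount of 0.1 gave 8 lower there. Leaving out 1 library gave 10 to 15 higher in DP against LL, 5 to 7 higher and 3 to 5 lower in LG against LL (3 without LL replicate 1 or LG replicate 1), and in LG against DP 0 to 1 higher (IL18, without LG replicate 3) and 9 to 14 lower (9 without DP replicate 2). Quantile normalization gave 15 higher in DP against LL, 4 higher and 4 lower in LG against LL, and 11 lower in LG against DP. Each goat gives 1 stage only, so the replicate numbers do not pair goats. Same-numbered libraries of different stages had correlations of -0.106 to 0.201 in their deviations from the stage means, and different-numbered ones -0.223 to 0.0722. A replicate block left the counts at 13 higher in DP against LL, 6 higher and 5 lower in LG against LL and 14 lower in LG against DP, with no gene call changed.

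Some log2 fold changes changed sign. Without scaling, DP against LL gave 0.35 for IL18, 1.09 for IL4R, 1.06 for IL1RAP, 0.35 for IL10 and 0.17 for IL1R2. In LG against LL it gave 0.70 for IL27RA, 0.45 for IL6R, 0.70 for IL2RG, 0.74 for IL10RA, 0.14 for IL1RAP, 0.57 for IL1RN, 0.049 for IL10, 0.24 for IL3RA, 0.052 for IL6, 0.54 for IL13RA1 and 0.084 for IL6ST, and in LG against DP -0.036 for IL15, -0.14 for IL15RA and -0.056 for IL1B. Among members not followed through the alternatives, IL7, IL11RA, IL17RB, IL18BP and IL18RAP also changed sign without scaling in DP against LL (0.79, 1.18, 0.42, 0.97 and 0.42), IL7, IL17RB, IL17RC, IL17RE and IL20RA in LG against LL (0.50, 0.17, 0.91, 0.66 and 0.18) and IL17RD in LG against DP (-0.052). Quantile normalization gave -0.14 for IL1B in DP against LL and, in LG against LL, 0.006 for IL10RA, -0.009 for IL1B, -0.32 for IL16 and -0.019 for IL1RL1. Values over the fits that left out 1 library were in DP against LL -0.21 to 0.17 for IL1RAP, and in LG against LL -0.26 to 0.49 for IL18, -0.064 to 0.27 for IL10RB, -0.38 to 0.03 for IL2RG, -0.15 to 0.018 for IL10RA, -0.33 to 0.066 for IL1RN and -0.18 to 0.17 for IL3RA, and in LG against DP -0.038 to 0.46 for IL15, -0.11 to 0.35 for IL15RA and -0.21 to 0.23 for IL1B. The cause of these shifts was not tested, except that leaving scaling out shifts every gene by construction. Read totals were not used here, so what depth limits was not assessed.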

Other observations

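Ratios of FPKM within a library do not depend on the scaling between libraries, and the pairs below were chosen after the values were seen. IL2RG to PTPRC, the pan-leukocyte gene CD45, was 0.972, 0.666 and 0.581 during LL, 0.440, 0.412 and 0.396 during DP and 0.469, 0.456 and 0.454 during LG. The 6 DP and LG libraries lay close together, although DP replicate 1 held the highest level of both genes. IL7R to PTPRC was 0.844, 0.889 and 0.676 during LL, 0.615, 0.930 and 0.513 during DP and 0.134, 0.241 and 0.210 during LG, so LG was lowest per PTPRC as well. IL2RB to PTPRC was 0.0782, 0.0507 and 0 during LL, 0.347, 0.208 and 0.272 during DP and 0.370, 0.434 and 0.302 during LG, with LL lowest. IL16 to PTPRC was 0.103, 0.0946 and 0.0847 during LL, 0.0869, 0.103 and 0.132 during DP and 0.0865, 0.0804 and 0.121 during LG, with overlapping stages, although IL16 itself was called higher in DP than in LL.

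In the IL-1 family, the signalling receptor IL1R1 stood at 2.40, 10.7 and 6.63 times its decoy IL1R2 during LL, 18.0, 13.3 and 41.7 times during DP and 5.48, 5.29 and 8.04 times during LG. DP was highest without overlap. The antagonist IL1RN stood at 3.89, 4.79 and 6.59 times IL1B during LL, 2.33, 30.5 and 3.21 times during DP and 1.42, 2.43 and 2.02 times during LG, and DP replicate 2 was apart from all others. IL33 to its receptor IL1RL1 was 19.4, 46.3 and 18.5 during LL, 7.60, 0.469 and 6.25 during DP and 42.7, 30.8 and 21.6 during LG, and DP replicate 2 was the only library with more receptor than ligand FPKM. Several denominators were near 0. IL1RL1 was at 0.09 to 0.13 FPKM in LL and 0.26 to 0.34 in LG, IL1B at 0.17 to 0.46 in LL and IL1R2 at 0.28 to 0.31 in LG. Ratios to values this low carry no stated precision. None of these ratios was tested.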
